A study of Saccharomyces cerevisiae with 12 samples.

Results

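The comparison set budding yeast that carry an Spt4 protein which Hog1 cannot phosphorylate at its mapped sites (Spt4-AA) against wild type, both growing without stress. Its members are the 3 libraries of the Spt4-AA mutant and the 3 of wild type without stress, 6 of 12 libraries in the series, and every gene with enough counts to test, 6040 of 7126 rows. Both strains are BY4741 (MATa, with his3, leu2, met15 and ura3 deletions) and both carry a TAP tag and the kanMX4 marker at SPT4, so the wild type is a tagged wild type and an effect of the tag itself would be shared. They were grown to log phase in YPD, a rich medium, at 30ºC. The other 6 libraries are the same strains after 15 minutes in 0.4 M NaCl, and they serve to see whether a difference recurred in other libraries and for the interaction of strain and salt. They also entered the fit, so they share in the estimate of spread behind each p-value. Polyadenylated RNA was sequenced. The methods state 3 biological replicates per condition; nothing given here says whether the mutant is more than 1 clone, so a difference of the allele and any other difference between these strains cannot be told apart.

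Spt4 and its partner Spt5 form a complex that rides with RNA polymerase II and helps it stay on the template during elongation. Hog1 is the stress-activated kinase of the high-osmolarity glycerol pathway. It is activated by high salt, and in unstressed cells it is largely inactive. The paper found Spt4 phosphorylated to some degree before stress too. It proposes that kinases other than Hog1 might act at the same residues then. It also reports a slightly lower level of the mutant protein. The baseline comparison asks how far gene expression differs before any stress in the strain with substitutions at the Hog1 sites.

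The sites are shown here because they define the strain. SPT4 lies on the minus strand of chromosome VII, and the window below spans codons 38 to 47 in the coding sequence, at chrVII:617684-617713 of the R64 genome. The capitals mark codon 42 (ACG, threonine) and codon 43 (TCG, serine), which T42A and S43A change to alanine.
SPT4 codons: acaatggaatgtACGTCGccttctttcgag
The SPT4 row held 14.6, 17.3 and 12.7 CPM (counts scaled to library size, normalized by the trimmed mean of M values) in wild type and 9.98, 7.78 and 11.6 in Spt4-AA. The groups did not overlap, but the difference of -0.61 (SE 0.19) on the log2 scale did not pass (adjusted p = 0.259 by the quasi-likelihood F-test of edgeR, adjusted by Benjamini-Hochberg over all genes tested). Total counts cannot show a point mutation, so they do not check the label. SPT5 read 99.8, 71.3 and 70.8 CPM in wild type and 130, 77.5 and 88.2 in Spt4-AA, which overlap.

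The 6 libraries held 12903162 to 21909524 counts each. The first principal component of the unstressed libraries carried 53.5% of their variance and placed the 3 wild-type libraries on one side and the 3 mutant libraries on the other. Replicate 1 of both strains stood apart from replicates 2 and 3 on the second component (19.9%). The a-cell markers were high in both strains, with mean levels of 852 and 756 CPM for STE2, the alpha-factor receptor. The alpha-cell pheromone gene MF(ALPHA)1 read 0.362 CPM in wild type and 0.0211 in Spt4-AA. LEU2 had 0 counts in every one of these libraries and MET17 and URA3 at most 2, all 3 deleted in this background, while HIS3, whose deletion is partial, kept 46.2 and 47.5 CPM.

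A gene was called altered when its adjusted p was under 0.05 and its fitted change at least 2-fold, as the study set the limits. By that rule 29 genes were altered, 0.48% of those tested. They fell almost wholly into named groups: phosphate-starvation genes and a repeated asparaginase locus that were lower in Spt4-AA, stress genes that were lower, and some wall mannoprotein genes, subtelomeric families and the serine gene SER3 that were higher. At any fold, 50 genes passed (0.828%), 16 higher (0.265%) and 34 lower, and at an unadjusted p under 0.05 the share was 7.7%, with 2.85% higher and 4.85% lower. Estimates were positive for 49.0% of genes and negative for 51.0%, and the median change over all genes tested was 0.00 with its middle 50% between -0.11 and 0.09 on the log2 scale.

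**Figure D1:**
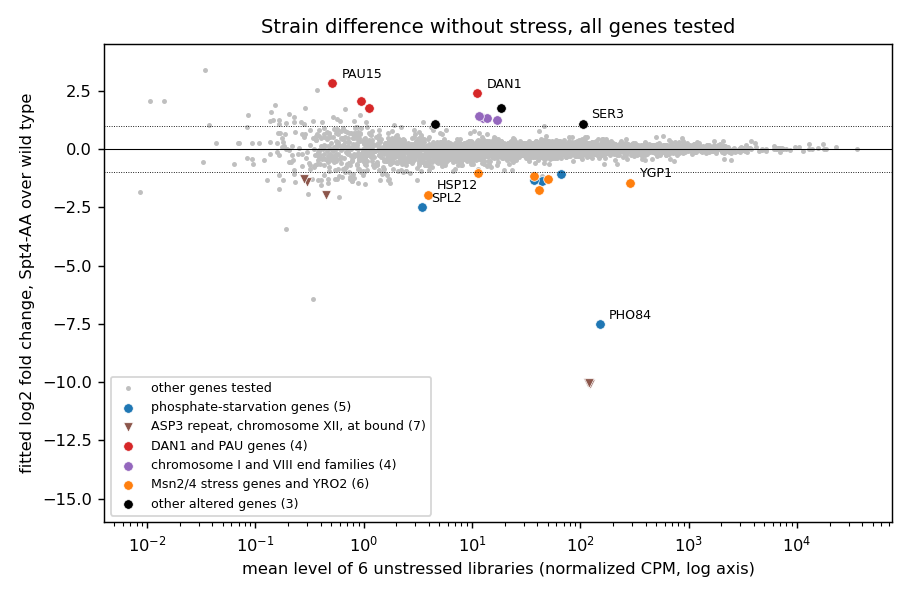
Each point is 1 gene tested; the horizontal axis is its mean level over the 6 unstressed libraries in normalized CPM (log axis) and the vertical axis its fitted log2 fold change, Spt4-AA over wild type. Coloured points are the 29 altered genes, with the 7 rows of the ASP3 repeat drawn as triangles at the lower bound of their difference, and dotted lines mark 2-fold; the middle 50% of the 6040 genes lie between -0.11 and 0.09, and PHO84 lies at -7.52.

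Phosphate-starvation genes were the most strongly lowered group of known function. When phosphate is scarce, the transcription factor Pho4 enters the nucleus and binds CACGTG sequences before genes for phosphate uptake, release and storage, and in phosphate-rich medium these genes are mostly kept low. Of 19 listed PHO targets, 5 were altered, all lower, where 0.298% of all genes tested were altered in that direction. In 12 of the 19 every Spt4-AA library lay below every wild-type library, against 9.47% of all genes, and in none did it lie above. The list's median was -0.38, with its middle 50% between -1.10 and -0.05.

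PHO84 encodes the high-affinity phosphate transporter of the plasma membrane. It read 304, 306 and 297 CPM in wild type and 1.64, 1.79 and 1.47 in Spt4-AA, 184-fold lower (log2 -7.52, SE 0.34, adjusted p = 1.33e-08 by edgeR). The libraries of each strain lay close together beside the gap between the strains. None of its tested neighbours on chromosome XIII passed the test. On its left TUB3, an alpha-tubulin gene, had a log2 difference of 0.20 and PGA3 one of 0.09. On its right YML122C, the nearest row, had 14, 11 and 6 counts in wild type and 7, 4 and 7 in Spt4-AA (log2 -0.50, SE 0.48), and GTR1 beyond it had a difference of 0.03.

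SPL2 encodes a small protein that holds down low-affinity phosphate transport. It read 5.92, 5.54 and 6.12 CPM in wild type and 0.948, 0.934 and 1.21 in Spt4-AA, 5.68-fold lower (adjusted p = 1.72e-04 by edgeR). PHO11 and PHO12, near-identical secreted acid phosphatase genes at the ends of chromosomes I and VIII, fell together, but only 14.0% and 14.9% of their 50-base windows are unique in the genome, so their reads are not independent. PHO11 read 51.2, 57.3 and 50.2 CPM against 18.8, 23.4 and 21.2, and PHO12 read 57.6, 68.7 and 65.9 against 22.7, 27.5 and 23.4.

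VTC3 is a regulatory subunit of the vacuolar complex that makes polyphosphate, the cell's phosphate store. It read 78.7, 89.0 and 99.4 CPM in wild type and 37.7, 47.6 and 41.8 in Spt4-AA (log2 -1.07, SE 0.12, adjusted p = 3.29e-04 by edgeR). Its estimate dropped just under 2-fold without wild-type replicate 3 or without Spt4-AA replicate 1. VTC4, the catalytic subunit, had a smaller difference of -0.38 with no overlap between the strains (179, 197 and 197 CPM against 141, 152 and 147), which did not pass (adjusted p = 0.108 by edgeR). VTC2 read -0.02 and VTC1 -0.20, both with overlapping libraries.

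Among the other targets, PHM6 (log2 -0.91), PHO89, the sodium-phosphate symporter (-1.12), and PHO5, the main secreted acid phosphatase (-0.39), were separated by strain but did not pass (adjusted p = 0.143, 0.245 and 0.374 by edgeR). PHO89 is a low-count gene, with 1.76 to 2.66 CPM in wild type and 0.778 to 1.56 in Spt4-AA. PHO81, the kinase inhibitor that switches the pathway on, read -0.32, also without overlap, and PHM7 and PHM8 did likewise at -0.32 and -0.66; PHO5, PHO81, PHM7 and PHM8 are named after their values were seen. Members with no separation were PHO86, which lets Pho84 leave the endoplasmic reticulum (-0.05), PHO8, the vacuolar phosphatase (-0.02), GIT1 (-0.04), PPN1 (0.06) and GDE1 (0.10). Regulators and low-affinity transporters of the pathway, 12 genes, had a median of -0.03 and no call.

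**Figure D2:**
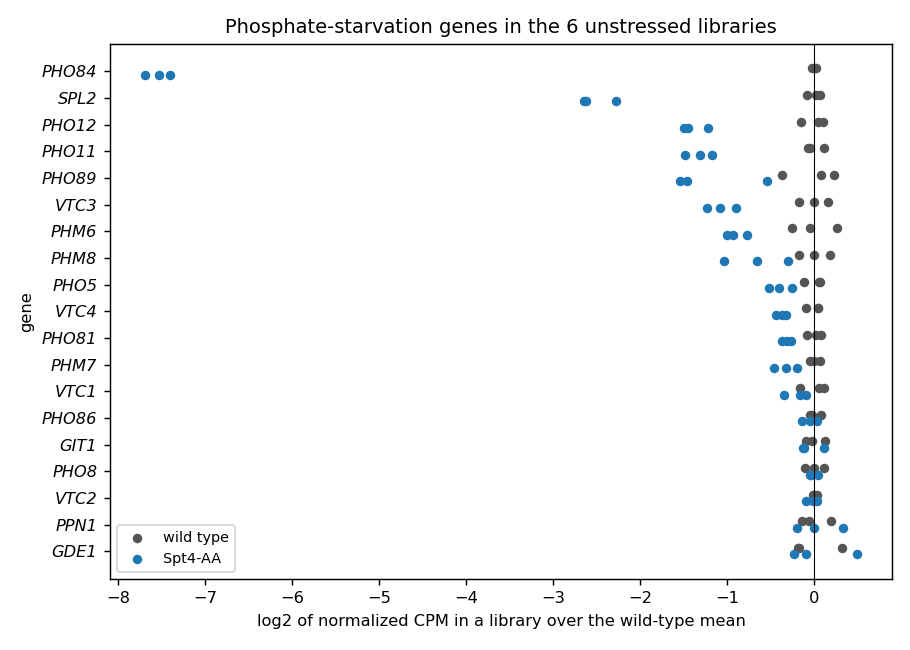
Each row is 1 of the 19 PHO targets and each point 1 unstressed library, placed by the log2 of its normalized CPM over the wild-type mean of that gene. The 3 Spt4-AA points lie left of every wild-type point in 12 rows, from PHO84 at the top to VTC4, PHO81 and PHM7, and mix with them in the rest.

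The CACGTG sequence that Pho4 binds was counted, on both strands, in the 500 bases before the start codon. It was present at 14 of the 19 PHO targets (73.7%) and at 6.25% of 5716 tested protein genes. SPL2 held 4 copies, PHO84 and VTC3 2 each, PHO11 and PHO12 1 each. The motif did not separate lowered from other targets, since VTC2 and PHO86 hold it too. The windows below, 30 bases each from R64, read 5′ to 3′ on the coding strand with the motif in capitals, show the sequence around it at the 5 altered genes and at VTC2, whose level did not separate the strains.
PHO84, chrXIII:26219-26248, minus strand: atttaatagttcCACGTGgacgtgttattt
PHO84, chrXIII:26197-26226, minus strand: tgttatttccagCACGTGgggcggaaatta
SPL2, chrVIII:375230-375259, minus strand: aaatgatgtacgCACGTGggcgaaagttca
PHO11, chrI:225165-225194, plus strand: tcttggcgttcaCACGTGggtttaaaaagg
PHO12, chrVIII:551804-551833, plus strand: tcttggcgttcaCACGTGggtttaaaaagg
VTC3, chrXVI:517346-517375, minus strand: tgtgcgagggccCACGTGgcttaatacaac
VTC3, chrXVI:517312-517341, minus strand: tgcagtcgcaagCACGTGcatgcgattttg
VTC2, chrVI:131487-131516, plus strand: gaaaaaaaaaccCACGTGctgcttggaaat
The windows of PHO11 and PHO12 are the same 30 bases, 283 bases before each start codon. A match is a description of these letters and was not tested as a binding site.

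The salt libraries gave the same measure in samples outside the 2 groups compared, although they share in the estimate of spread. PHO84 was again lower in Spt4-AA, at 1.22, 3.38 and 0.469 CPM against 35.6, 40.8 and 43.6 (log2 -4.65). SPL2 and VTC3 were lower by 0.73 and 0.44 on the log2 scale. PHO11 and PHO12 were not: PHO12 read 29.1, 25.3 and 23.8 CPM in wild type and 27.6, 31.0 and 26.3 in Spt4-AA. The interaction, that is the strain difference with NaCl minus the one without, was 1.5 for PHO12 (adjusted p = 2.83e-05 by edgeR), and it shares the unstressed libraries with the comparison.

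The ASP3 locus on chromosome XII had almost no counts in the Spt4-AA libraries. ASP3 encodes the secreted asparaginase that yeast use under nitrogen limitation, and the reference genome carries 4 copies in a repeat on the right arm. ASP3-1 had 3002, 5256 and 3837 counts in wild type and 0, 1 and 0 in Spt4-AA, and the other copies had the same pattern, so each was at least 1040-fold lower against a floor of 3 counts per library. The 4 copies share all their 50-base windows, 0.00% unique, so they count as 1 locus. The methods state that only uniquely mapped reads were counted, yet these rows hold 2912 to 5256 counts in wild type, and how those reads were placed is not given in the sources used here.

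The altered rows ran from chrXII:469317-489341, 20025 bases. The small rows YLR157W-D, YLR159W and YLR161W in that stretch were altered as well, with 8 to 10, 5 to 17 and 10 to 20 counts in wild type and 0 in all 3 Spt4-AA libraries, at least 2.44-, 2.64- and 3.94-fold lower. YLR157W-D had an adjusted p of 0.0559 with the replicate number as a block, and YLR157W-D and YLR159W each lost the call in 5 of 12 fits that left out 1 library, and ASP3-1 without Spt4-AA replicate 1 or 2. One row inside the stretch kept its counts: YLR157C-B, a retrotransposon reading frame with 3087, 3594 and 2937 counts in wild type and 3872, 2504 and 2382 in Spt4-AA, of whose 50-base windows 0.94% are unique. On the left ACS2 (log2 -0.05) and RNH203 (-0.23) and on the right MAS1 (0.03) and SHH4 (0.08) did not differ beyond the spread. RNA counts cannot tell an unexpressed locus from a missing one, and DNA was not measured here.

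In the salt libraries the 4 copies read 173 to 211 CPM in wild type. Spt4-AA replicates 1 and 3 held at most 0.156 CPM of any copy, and replicate 2 held 7.78 to 10.7. That library also had the highest PHO84 level of the 3, 3.38 CPM. It was kept, and the counts of altered genes that recur with NaCl are given below with and without it.

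**Figure D3:**
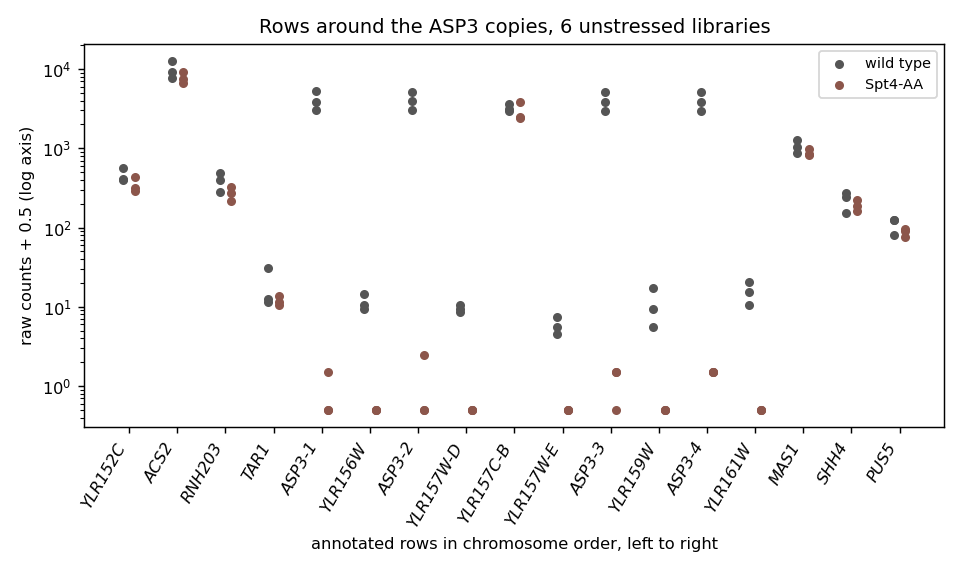
Annotated rows around the ASP3 copies in chromosome order, with 1 point per unstressed library and raw counts plus 0.5 on a log axis; rows with under 10 counts in all are left out. The 4 ASP3 copies sit between 2912 and 5256 counts in wild type and at 0 to 2 in Spt4-AA, and the retrotransposon row YLR157C-B between them has 2382 to 3872 counts over both strains.

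Stress genes made the next lowered group. Msn2 and Msn4 are transcription factors that switch on a broad set of genes when growth is threatened, by way of the AGGGG sequence. Of 46 listed targets tested, 6 passed and all were lower (0.563% of all genes). Separated downwards were 17 (37.0%, against 9.47% of all genes) and upwards 2 (4.35%, against 6.94%). The list's median was -0.16, with 33 of 46 members below 0. AGGGG was present before 43 of the 46 (93.5%) and before 34.6% of tested protein genes.

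YGP1, a secreted glycoprotein of the cell wall, read 405, 448 and 409 CPM in wild type and 152, 138 and 172 in Spt4-AA, 2.74-fold lower (adjusted p = 1.23e-05 by edgeR). HXK1, the hexokinase isoform used away from high glucose, read 60.1, 81.5 and 71.7 against 28.7, 29 and 30.5, and GPH1, glycogen phosphorylase, 15.3, 14.7 and 15.5 against 7.20, 8.72 and 6.42. HSP12, a small membrane-associated heat-shock protein, was a low-level gene here, with 5.40, 6.32 and 7.04 CPM against 1.71, 2.1 and 0.954 (log2 -1.96, SE 0.28). For each the strains did not overlap.

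HOR7, a small hyperosmolarity-responsive gene, read 48.1, 55.8 and 49.1 CPM against 21.7, 23.8 and 24.2. Its call was lost without wild-type replicate 2 or without any one Spt4-AA library (adjusted p up to 0.0862 by edgeR). GPH1 kept its p but slipped under 2-fold without Spt4-AA replicate 1 or 3. YRO2, a plasma-membrane protein outside the list, fell from 65.4, 67.2 and 59.1 CPM to 21.9, 15.5 and 19.9 (log2 -1.74, adjusted p = 9.93e-06 by edgeR). SOL4, a phosphogluconolactonase, passed the test at a 2.0-fold decrease, just under the limit before rounding, and its adjusted p became 0.0693 with the replicate block.

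The lowering did not run through reserve-sugar metabolism as a whole. Of 20 trehalose and glycogen genes GPH1 alone passed, and the list's median was -0.02. GSY2 and GSY1, the glycogen synthases, read -0.28 and -0.29 and GLG1, a glycogen primer, 0.32, each separated by strain and none past the test (adjusted p = 0.416, 0.480 and 0.397 by edgeR). In the same list of Msn2/4 targets HSP104, the disaggregase, and TKL2, a transketolase, stood higher in Spt4-AA, by 0.26 and 0.60. With NaCl, 35 of the 46 targets were lower in Spt4-AA past the test (76.1%, against 23.4% of all genes). HSP12 was then at 5260, 4530 and 4470 CPM in wild type and 4940, 4690 and 3260 in Spt4-AA, a range nearly shared.

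Sugar transporter genes differed in both directions. HXT4, a glucose transporter of intermediate affinity, read 191, 207 and 206 CPM against 124, 128 and 140 and passed (log2 -0.63, SE 0.09, adjusted p = 0.00124 by edgeR). HXT1, the low-affinity transporter, read 780, 922 and 885 against 541, 655 and 630, and HXT2, a high-affinity one, 563, 573 and 571 against 686, 779 and 777. The strains did not overlap for either, but neither passed with all libraries in the fit (adjusted p = 0.161 and 0.176). Of 21 genes of sugar transport and its regulation, 5 were separated upwards and 3 downwards, where 6.94% and 9.47% of all genes were. An alternative described with the small shifts below used the block and only the 6 unstressed libraries. It called 2 of 19 higher (10.5%, against 5.26% of all genes), HXT2 and RGT1. It called 5 lower (26.3%, against 3.89%), namely HXT1, HXT4, HXT5, HXT6 and HXT7. GPP2, a glycerol-3-phosphatase of the osmolyte pathway, passed at -0.61, with adjusted p = 0.0667 under the replicate block. STL1, the glycerol importer, read 0.592, 0.621 and 0.49 CPM against 1.01, 1.09 and 1.13 and did not pass. The HOG pathway itself (25 genes, median 0.03) gave no call with all libraries. Of 17 glycerol and osmolyte genes 5 were separated upwards (29.4%) and 1 downwards (5.88%). The 6-library block called 4 of the 17 higher (23.5%, against 5.26%, and 0 to 5 with 1 replicate number left out) and GPP2 lower. In the HOG pathway it called 4 higher (16%, and 1 to 4) and none lower.

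The DAN and TIR genes encode wall mannoproteins that yeast use in the cold or without oxygen, and 2 of the 7 tested passed, both higher (0.265% of all genes), while 5 estimates were positive and 2 negative. DAN1, an anaerobic wall mannoprotein, read 4.07, 2.95 and 3.86 CPM in wild type and 19.6, 17.4 and 19.3 in Spt4-AA, 5.21-fold higher (adjusted p = 6.24e-05 by edgeR). TIR4 read 31.8, 30.1 and 30.0 against 57.7, 43.1 and 57.5 and passed below 2-fold (log2 0.78). TIR1, a cold-shock mannoprotein, read 0.50 with no overlap and did not pass (adjusted p = 0.211), and TIR2, TIR3 and DAN4 overlapped. Beyond these, 14 other hypoxic genes had a median of 0.10 and no call, and 23 ergosterol genes one of 0.01.

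The PAU genes, a large subtelomeric family of small mannoproteins, leaned the same way at very low levels. Of 23 tested, 22 had a positive estimate and 18 were higher in all 3 same-numbered library pairs, against 20.4% of all genes. The median was 0.74. PAU15 (0.0740, 0.155 and 0.122 CPM against 1.07, 0.7 and 0.954), PAU21 and PAU22 were altered; no wild-type library held more than 3 counts of PAU15, which was at least 4.87-fold higher. PAU21 and PAU22 lost the call with the replicate block and all 12 libraries (adjusted p = 0.0869 and 0.0627) and kept it with the block and only the 6 unstressed libraries (0.0121 and 0.00606). PAU21 lost it in 10 and PAU22 in 7 of the 12 fits that left out 1 library, and PAU15 lost it without wild-type replicate 1 or 3. Many members share sequence, with 0.00% unique windows in PAU21 and PAU22, so their counts are not independent. With NaCl DAN1 was 3.13 higher on the log2 scale, while the 3 altered PAU genes had estimates of 0.18 to 0.41 that did not pass.

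Many altered genes lay near chromosome ends. Within 25 kb of an end 12 of 283 tested genes were altered (4.24%), 8 of them higher, and beyond 100 kb 14 of 4311 (0.325%), of which 13 were lower. The 13 include the 7 rows of the ASP3 repeat, and the 12 include copies that share reads, so both counts exceed the number of independent loci. The median change of genes near the ends was -0.017. Besides PAU genes, the higher ones were YAR066W and YAR068W on chromosome I, YHR214W on chromosome VIII and YMR317W on chromosome XIII, all uncharacterized, and DSF1, a mannitol dehydrogenase gene on chromosome V that lost the call in 5 of 12 fits leaving out 1 library. YMR317W read 8.21, 10.1 and 7.16 CPM against 26.9, 30.7 and 28.7 (log2 1.75, adjusted p = 5.21e-04 by edgeR), and 95.3% of its windows are unique.

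The right ends of chromosomes I and VIII carry the same gene block in 2 copies, and genes within it went opposite ways. YAR066W read 5.92, 6.99 and 5.81 CPM in wild type and 14.4, 17.8 and 18.5 in Spt4-AA, and its copy YHR214W 6.66, 8.54 and 6.30 against 17.2, 17.6 and 19.4. Next to them PHO11 and PHO12 were lower, as described above. YHR214W-A, a row without a RefSeq entry, was also higher, at 10.2, 9.53 and 10.9 CPM against 25.2, 22.1 and 23.9. Only 7.56% of the windows in YAR066W and YHR214W are unique, so their reads are not independent either. The rise recurred with NaCl at 1.72 to 2.04 on the log2 scale for the 4 rows.

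SER3 and CHA1, at opposite ends of serine metabolism, moved in opposite directions. SER3 makes the first enzyme of serine synthesis and is known in yeast for being held down by transcription of the noncoding SRG1 across its promoter. It read 68.6, 66.5 and 65.4 CPM in wild type and 133, 148 and 148 in Spt4-AA, 2.14-fold higher (log2 1.09, SE 0.08, adjusted p = 9.68e-06 by edgeR). SRG1 had 101, 159 and 153 counts in wild type and 131, 168 and 99 in Spt4-AA, with a log2 difference of 0.25 and overlapping libraries. CHA1, the deaminase that breaks serine down, read 455, 456 and 467 CPM against 319, 322 and 340 (log2 -0.49, adjusted p = 0.0164 by edgeR). SER3's paralog SER33 read -0.11. Of 28 genes of serine, glycine, histidine and threonine synthesis SER3 was the one call, 21 were above 0, and the next by unadjusted p were ASN1 at 0.24 and SER1 at 0.18. The block fit of the 6 unstressed libraries, described below, called 7 of the 28 higher (25%, against 5.26% of all genes) and none lower. With 1 replicate number left out it called 2 to 10 higher. Of 27 branched-chain and aromatic amino acid genes it called 6 higher (22.2%, and 1 to 8) and 2 lower (7.41%, against 3.89%, and 1 to 3).

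A further set of genes passed at under 2-fold. FIT1, a wall mannoprotein that retains iron siderophores, read 29.1, 34.6 and 29.9 CPM against 61.3, 53.5 and 69.8 (log2 0.98), and the other iron genes gave no call. URA1, the pyrimidine gene for dihydroorotate dehydrogenase, was lower (-0.41), as were PMP1, a small regulator of the plasma-membrane proton pump (-0.65), YPC1, a ceramidase (-0.77), ARO10, a decarboxylase of the fusel alcohol pathway (-0.69), PLN1, a lipid-droplet protein (-0.65), and TPO2, a polyamine exporter (-0.62). DSE2 and SCW11, glucanases that daughter cells secrete to separate from the mother, read 784, 789 and 737 against 537, 547 and 602 and 537, 543 and 508 against 377, 388 and 428. The chitinase gene CTS1 read 2930, 2980 and 2660 against 2110, 1950 and 2160 and did not pass (adjusted p = 0.108 by edgeR). The block with only the 6 unstressed libraries called CTS1, DSE1, DSE4 and EGT2 lower. No list of separation genes was set, and DSE1, DSE4 and EGT2 are named after their values were seen. ATG22, BNA1 and YGL204C were also lower and YMD8, YJL213W and YAR073W higher, by 0.95 or less. The 10 of the 21 genes passing under 2-fold that lost the call with the replicate block and all 12 libraries, with adjusted p between 0.062 and 0.087, were DSE2, SCW11, ATG22, BNA1, YGL204C, YMD8, YJL213W, YAR073W, GPP2 and SOL4. None of the 10 lost it with the block and only the 6 unstressed libraries, where SOL4 had the highest adjusted p, 0.0264. Of the 21, YPC1, FIT1 and HXT4 kept the call in all 12 fits that left out 1 library. PMP1, YPC1, CHA1, PLN1, DSE2, SCW11, ATG22, YGL204C, YMD8, YJL213W and YAR073W belong to no list and are named after their values were seen.

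Shifts too small for a gene-wise call were read as counts over lists. Same-numbered libraries of the strains deviated together clearly for replicate 1 (r = 0.659). For replicates 2 and 3 (0.328 and 0.131) the crossed pairs correlated more (0.351 and 0.285), so their pairing is an assumption. The lists were also read in a fit of only these 6 libraries with the replicate number as a block, an alternative chosen after seeing the data. It passed 534 of 5839 genes (9.15%; 307 higher and 227 lower) where the comparison with all libraries passed 50. Leaving out replicate 1, 2 or 3 of both strains gave 168, 927 and 143 genes, so this count rests heavily on which pairs are in the fit, and each list count below is given with its range over those 3 fits.

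The listed heat-shock chaperones were slightly higher. All 26 tested had a positive estimate, 13 were separated upwards (6.94% of all genes) and none downwards, and the median was 0.18. The mean of the members' centred log2 levels was -0.14, -0.06 and -0.09 in the wild-type libraries and 0.12, 0.06 and 0.11 in the Spt4-AA libraries, which do not overlap. HSP82, the inducible Hsp90, read 131, 140 and 150 CPM against 174, 177 and 188, and SIS1, an Hsp40 co-chaperone, 118, 122 and 126 against 168, 150 and 153. Neither passed with all libraries in the fit (adjusted p = 0.161 and 0.104), and none of the 26 did. With the block 12 were called higher (46.2%, against 5.26% of all genes; 6 to 12 over the 3 fits), SSA1, SSA2, HSC82 and SSE1 among them. In the salt libraries the list did not lean that way: 4 were higher and 13 lower in Spt4-AA past the test, with a median of -0.34. The result holds for this list and not for every chaperone. HSP26, a chaperone placed in the Msn2/4 list instead, was lower without stress and without overlap (17.5, 22.9 and 21.1 CPM against 13.5, 13.4 and 15.5). Its difference of -0.54 did not pass with all libraries (adjusted p = 0.146 by edgeR), and the block called it lower.

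Mating genes of a cells were slightly lower. Of 28 tested, 10 were separated downwards (35.7%, against 9.47% of all genes) and 2 upwards (7.14%, against 6.94%). The median was -0.19. AGA1, which anchors the agglutinin that sticks mating partners together, passed (325, 309 and 294 CPM against 228, 222 and 228, log2 -0.45, adjusted p = 0.0164 by edgeR). FIG1, a gene of the fusion response, read 9.98, 7.82 and 9 against 5.06, 4.82 and 4.94 and did not pass (adjusted p = 0.133). With the block 11 were called lower (39.3%, against 3.89% of all genes; 5 to 11 over the 3 fits). The block also called MFA2, an a-factor gene, and PRM5 higher, at 0.17 and 0.38 in the fit of all libraries, and the libraries of MFA2 and of the kinase gene FUS3 (0.00) overlapped. With NaCl the list was on the other side, with 10 of 28 higher in Spt4-AA past the test (35.7%, against 24.3% of all genes) and none lower.

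Genes of purine and pyrimidine synthesis and uptake differed in both directions. The list of 34 had a median of 0.09 and held 11 called higher with the block (32.4%, against 5.26% of all genes; 1 to 11 over the 3 fits) and 4 lower (11.8%, against 3.89%; 1 to 7). Among those higher were IMD2, an IMP dehydrogenase (366, 449 and 416 CPM against 536, 642 and 601, log2 0.53), ADE12, IMD3 and URA8, a CTP synthase gene. Those lower were URA1, URA2 and the uracil and uridine permeases FUR4 and FUI1. With all libraries URA1 was the one call and IMD2 had an adjusted p of 0.0696 by edgeR. Of the 50-base windows of IMD2, 68.4% are unique.

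The large growth lists had small medians. Cytosolic ribosomal protein genes had one of -0.05, with 105 of 137 below 0 and none past the test with all libraries. The mean of their centred log2 levels was -0.04, 0.08 and 0.05 in wild-type replicates 1, 2 and 3 and -0.08, -0.01 and 0.01 in the same replicates of Spt4-AA. The strains overlapped, but each Spt4-AA library was below the wild-type library of its number, and 61 of the 137 genes (44.5%) were lower in all 3 pairs, against 22% of all genes. With the block 10 were called lower (7.30%, against 3.89% of all genes, and 1 to 37 over the 3 fits). RPS14B was called higher (0.73%, against 5.26%, and 0 to 8). Mitochondrial ribosomal proteins (median -0.08, 58 of 70 below 0) and the respiratory chain (-0.09, 28 of 38 below 0) leaned the same way. With the block 2 mitochondrial ribosomal genes were called lower (2.86%, and 0 to 6 over the 3 fits), a share below that of all genes. In the respiratory chain 3 were called lower (7.89%, and 0 to 4) and COX5A higher (2.63%, and 0 to 3). Proteasome genes leaned up (median 0.09, 29 of 33 above 0), led by PUP1 at 134, 157 and 155 CPM against 185, 219 and 197. With the block 4 of them were called higher (12.1%, against 5.26% of all genes, and 2 to 12). Ribosome biogenesis, translation, glycolysis, histone and elongation factor lists had medians between -0.01 and 0.05, and the 40 elongation factors had no call with all libraries. With the block NAP1, SPT5 and POB3 were called higher (7.5%, against 5.26% of all genes, and 0 to 3). SPT4 was called lower (2.5%, against 3.89%, and 0 to 1). Of 26 genes of glycolysis and fermentation the block called 5 higher (19.2%, against 5.26%, and 0 to 9). It called 2 of the 26 lower (7.69%, against 3.89%, and 2 in each of the 3 fits).

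**Figure D4:**
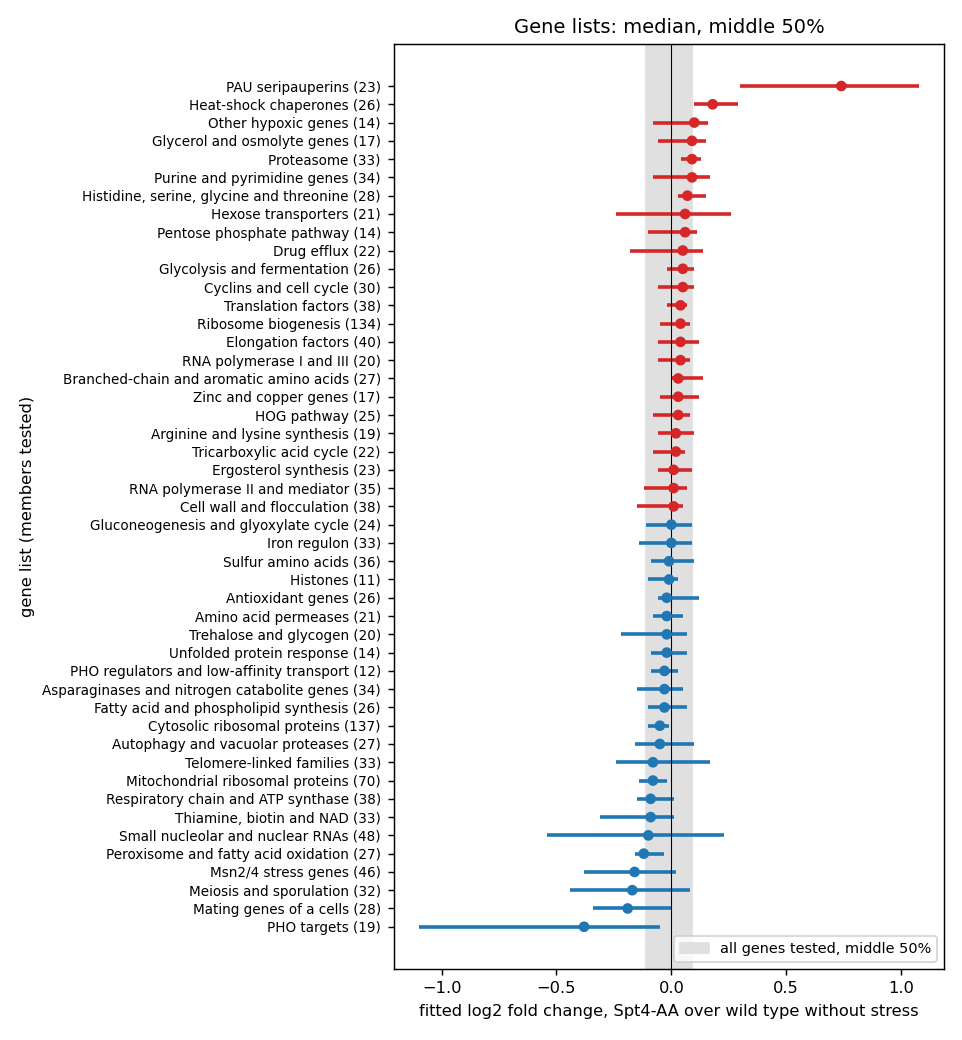
Gene lists with 10 or more members tested, in order of their median log2 fold change (points) with the middle 50% of members (bars), Spt4-AA over wild type without stress; the grey band is the middle 50% of all 6040 genes, -0.11 to 0.09. PAU genes at 0.74 and PHO targets at -0.38 lie outside the band, heat-shock chaperones at 0.18 and the mating list at -0.19 lie just outside it, as do Msn2/4 targets, meiosis genes and peroxisome genes on the lower side and other hypoxic genes at 0.10, and most medians lie inside.

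The differences also tilted with base composition. Genes were put into 4 equal bins. The bin with the lowest GC content had a median of -0.076 and the one with the highest 0.043 (Spearman's rho = 0.275 across 5726 genes, which are not independent). The libraries of the strains overlapped in both bins. Mean centred log2 levels in the lowest were 0.138, -0.048 and 0.064 in wild type and 0.031, -0.074 and -0.112 in Spt4-AA. In the highest they were -0.071, 0.1 and -0.027 against -0.033, 0.008 and 0.022. Bins of gene length ran from -0.035 for the shortest to 0.011 for the longest (rho = 0.127), and bins of level from -0.084 to 0.038. Chromosome medians all lay between -0.024 and 0.010, so no chromosome shifted as a whole. After the median of each gene's GC and level bin was subtracted, an alternative chosen after seeing the data, chaperones stood at 0.17, PHO targets at -0.40 and PAU genes at 0.76, while the mating list went from -0.19 to -0.11, the meiosis list from -0.17 to -0.07, the peroxisome list from -0.12 to -0.06, other hypoxic genes from 0.10 to 0.06, the purine and pyrimidine list from 0.09 to 0.03 and respiratory genes from -0.09 to -0.12.

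The 29 altered genes were then read in the 6 salt libraries, in which the strains differ far more widely (47.7% of genes past the test). Of the 29, 22 differed in the same direction past the test (75.9%), where 27.6% of all genes passed with the sign they had without stress. The 22 include all 7 altered rows of the ASP3 repeat, and YAR066W and YHR214W, which share most of their windows. These rows are not independent, so the share overstates the number of separate loci. In the fit without Spt4-AA salt replicate 2 the count was 24, taken over the genes altered in that fit and not over these 29. Of the 29, those that did not recur were PHO11, PHO12, HSP12, HOR7, PAU15, PAU21 and PAU22, of which HOR7 passed in the other direction (log2 0.51). For 12 of the 29 the strain difference itself depended on salt (adjusted p under 0.05 for the interaction, against 26.0% of all genes); these share the unstressed libraries that chose the genes.

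**Figure D5:**
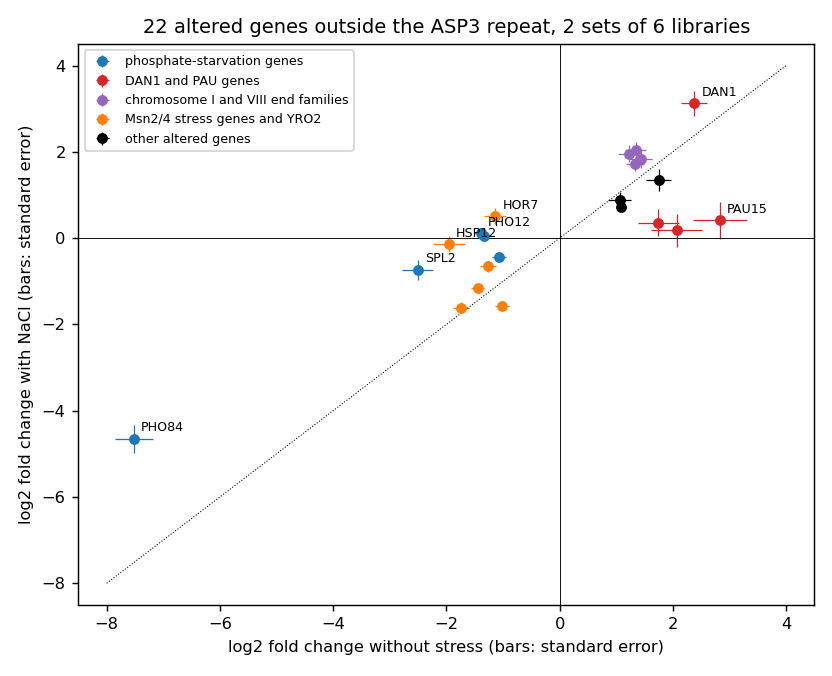
Fitted log2 fold change, Spt4-AA over wild type, of 22 altered genes without stress (horizontal) and with NaCl (vertical), with bars of 1 standard error; the 7 rows of the ASP3 repeat are left out because their fitted values depend on counts of 0. DAN1 and the families of the chromosome I and VIII ends lie above the dotted line of equal change, PHO84 lies at -7.52 and -4.65, and PHO12, HSP12 and the PAU genes lie near 0 with NaCl.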

How the data were processed

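The authors sequenced stranded, poly(A)-selected libraries as single-end 50-base reads, aligned them to sacCer3 with TopHat2 2.1.0 and deposited raw counts per gene from featureCounts 1.5.1 with the R64 annotation. From the deposited counts, edgeR 4.0.16 fitted all 12 libraries with 1 coefficient per group (filterByExpr, trimmed mean of M values, robust quasi-likelihood) and p-values were adjusted by Benjamini-Hochberg over 6040 genes. The filter kept 99.98% or more of each library's counts. Where no library of a strain held more than 3 counts of a gene, its fold is given as a bound. DESeq2 1.42.0 is an alternative. Functions were tested on simulated data.

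Named genes are all altered genes, listed genes past adjusted p, and up to 3 further members of a described list by unadjusted p. Other members of the PHO, DAN and TIR lists, and HSP104, SSA1, SSA2, SSE1, HSC82, MFA2, FUS3, IMD3, URA2, URA8, FUI1, SER33, SRG1, HXT6, HXT7, RGT1, RPS14B, COX5A, NAP1 and POB3, are named after their values were seen. The members and the 52 lists were chosen with earlier results of these data known. Same-numbered libraries of the 2 strains deviated together (r = 0.659, 0.328 and 0.131), so numbers were taken to pair them, although replicate 2 of wild type correlated as well with replicate 3 of Spt4-AA (0.351), and replicate 3 of wild type more with replicate 2 of Spt4-AA (0.285) than with its own number. Names and coordinates are RefSeq R64, which matched 6048 of 7126 rows. No 2 libraries agreed within sampling noise (chi-square per degree of freedom 6.31 or more).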

Additional observations from a re-analysis of the deposited data

Results flagged for a closer look

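For 38 of 81 named genes that passed the test or belong to a described list (46.9%) the strain difference depended on salt (adjusted p under 0.05 for the interaction in the edgeR fit; 26.0% of all genes tested passed it; the 81 were chosen by the unstressed libraries that enter the interaction, so nothing is read from the share). Values in brackets are the strain difference with NaCl minus the one without, on the log2 scale. Among altered genes it was positive for PHO84 (2.87), HSP12 (1.81), SPL2 (1.78), HOR7 (1.64), PHO12 (1.5), PHO11 (1.38), HXK1 (0.63) and VTC3 (0.63), and negative for PAU15 (-2.43), PAU21 (-1.89), GPH1 (-0.55) and SER3 (-0.38). Among other named genes it was positive for FIG1 (2.04), PMP1 (1.63), YGL204C (1.51), AGA1 (1.47), PHM6 (1.37), PHO89 (1.34), GPP2 (0.85), TIR1 (0.80), HXT1 (0.64), KAR4 (0.60), CHA1 (0.59), URA1 (0.59), IMD2 (0.53), GSY1 (0.51), HXT4 (0.44), ASN1 (0.36) and SER1 (0.35). It was negative for GLG1 (-1.51), TKL2 (-1.44), SPT5 (-1.05), HXT5 (-0.84), HSP82 (-0.80), SIS1 (-0.70), STI1 (-0.63), YJL213W (-0.61) and GSY2 (-0.56). The estimates of AGA1, PMP1 and YGL204C were below 0 without stress and above 0 with NaCl, and those of HSP82, SIS1 and STI1 the other way round. The interaction shares the unstressed libraries that chose these genes, and why the difference changes with salt was not tested.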

How the results depend on the processing

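Altered genes numbered 29 (11 higher, 18 lower). No direction reversed under any alternative. A test against the 2-fold limit itself left 9 (1 higher, 8 lower). Leaving out 1 library at a time gave 19 to 32 (7 to 11 higher, 12 to 21 lower), and 19 of the 29 kept their call in all 12 fits; lowest was the fit without Spt4-AA replicate 1. Genes past adjusted p at any fold numbered 50, and 80 with only the 6 unstressed libraries, 77 with DESeq2 and 24 to 72 over the left-out libraries. Altered genes with an interaction numbered 12, and 6 to 19 over the left-out libraries.

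The replicate block left 26 altered genes and 37 past adjusted p with all 12 libraries. With only the 6 unstressed libraries the block gave 35 and 534, and leaving replicate 1, 2 or 3 out of both strains gave 25, 60 and 24, and 168, 927 and 143. With all 12 libraries, the block lost no call among the 50 genes beyond those given above. RLE size factors gave 28 altered genes, library totals alone 32, a minimum of 10 counts 20 and no filter 30. List medians stayed within the spread of their libraries in 1113 refits and moved beyond it in 58. Depth limits the PAU genes and other rows below about 1 CPM, where 1 library decides a call.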
